A study of Arabidopsis thaliana with 8 samples.

Results

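The subject of this report is a set of 121 probe sets of the Arabidopsis ATH1 array that carried signal in iodide-treated roots and little signal in shoots. A probe set is a group of short oligonucleotides on the array that reads the RNA of 1 gene or of a few similar genes. The members were chosen by their own signals. In root, the lower of the NaI and KI signals had to be at least 100 and at least 4 times the higher of the control and KBr signals, and all 4 shoot signals had to lie under 100. The 121 members are 0.532% of the 22746 probe sets on the array other than Affymetrix controls. A total of 74 members name 1 gene alone, and these 74 are the genes described below. The other 47 are unnamed here.

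Plants of Arabidopsis thaliana aged 3 weeks grew in hydroponic culture on a base nutrient solution in which contaminating iodine was at most 8 nM. Roots and leaves (the rosettes, called shoot here) were sampled 48 h after the start of treatment, from untreated control plants and from plants that received KBr, NaI or KI at 10 µM. KBr brings potassium and another halide without iodide, and NaI brings iodide without potassium. With 1 pool per treatment, effects of potassium or of halides in general were not tested. Each sample was a pool of 3 plants hybridised to 1 array, which gives 8 arrays, 4 per organ. No treatment was replicated, so no value here has a replicate error, no test between treatments was made, and each fold compares pools, not treated populations. The values are MAS5 signals, a linear measure of hybridisation intensity.

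Iodine is not counted among the essential nutrients of land plants, and iodide is taken up by roots from the solution around them. Class III peroxidases are secreted haem enzymes that use hydrogen peroxide to oxidise phenolic compounds and to cross-link cell walls. Family 1 glycosidases (BGLU) release sugars from stored glucosides, UDP-glycosyltransferases (UGT) attach sugars to hormones and small metabolites, and TIR proteins are intracellular immune receptors or their relatives. Suberin and lignin, the barrier polymers of roots, are built from fatty acids, fatty alcohols and phenylpropanoids.

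The 8 arrays had been scaled alike, with a 2% trimmed mean close to 500.0 on each and between 58.5% and 61.7% of probe sets at 100 or more. Organ labels were checked on 3 marker genes that had a probe set of their own, out of 30 listed. The photosynthesis genes RCA and LHCB4.2 reached at most 90.3 on a root array and at least 10176 on every shoot array. PYK10, the major root beta-glucosidase of ER bodies, lay between 7129 and 10000.1 in root and between 168 and 364 in shoot, so the defining shoot markers stayed under 100 in all 4 roots, and PYK10 had some signal in all 4 shoots. The study's methods name a commercial kit for root RNA and another protocol for rosettes, while the labels give 1 protocol for all samples, and with the former, organ and extraction cannot be told apart. In whole organs, fewer cells of a type and less RNA per cell cannot be told apart either.

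The root condition alone was met by 235 probe sets, 1.03% of all. Of these, 121 (51.5%) stayed under 100 on every shoot array and 114 reached 100 on at least 1. Signals under 100 on every shoot array were found for 35.1% of all probe sets, and for 12.4% of the probe sets whose root NaI and KI signals both reached 100. Among the 75 probe sets that went the other way in root, at least 4-fold lower with both iodide salts, the share under 100 in every shoot was 70.7% (53 probe sets). These shares describe the selection, which used the same signals, and nothing is read from them.

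**Figure D1:**
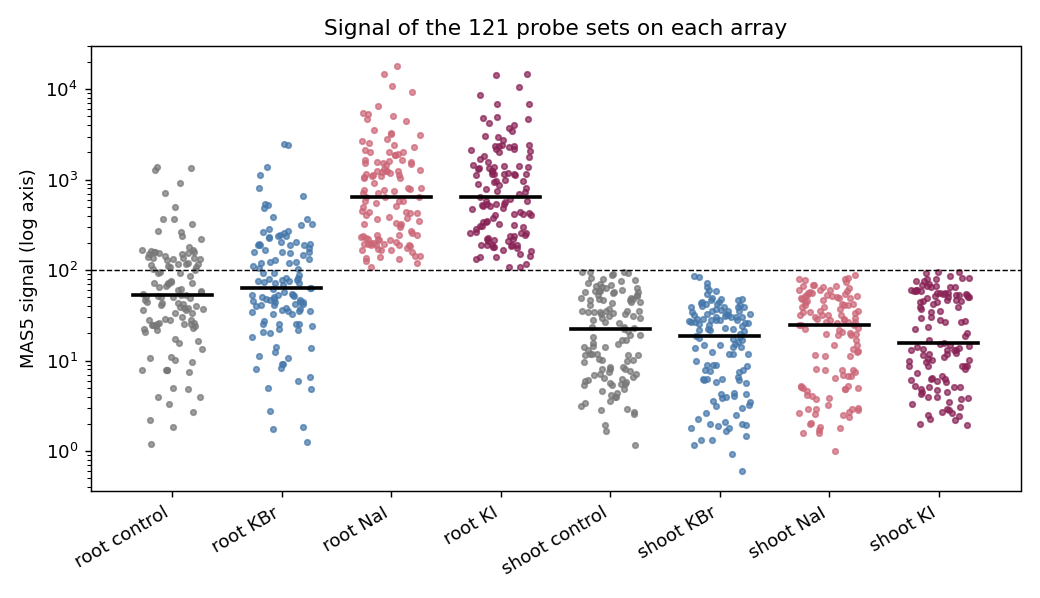
Each point is 1 of the 121 probe sets, with the array on the x axis and its MAS5 signal on the logarithmic y axis. Black bars are medians and the dashed line is the signal of 100 used in the selection. The root medians are 52.6 (control), 64.2 (KBr), 650.2 (NaI) and 650.5 (KI), and all 4 shoot columns lie under 100, as the selection required.

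The median root signal over the members was 52.6 in control, 64.2 with KBr, 650.2 with NaI and 650.5 with KI. Since these signals were used to choose the members, the gap between both pairs is a description and not a finding. Within the set, 73 members had control and KBr signals that were both under 100, and their median ratio of the lower iodide signal to the higher other signal was 7.94. The remaining 48 reached 100 without iodide on at least 1 of those 2 arrays, with a median ratio of 5.90. Thus part of the set was near the bottom of the array's range without iodide, whereas the rest was already measurable there. The first kind was also dimmer with iodide, with a median lower iodide signal of 258 against 1436 for the second. The rule builds in part of this gap. It asked the second kind for at least 4 times a signal of 100 or more, the first for as little as 100. The ratio was at least 10 for 31 members, at least 50 for 7 and under 5 for 31. Ratios over a very small signal have little precision, and when every signal under 50 was set to 50, 19 members kept a ratio of at least 10 and 95 one of at least 4.

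At the limit of the fold, the ratio was 4.02 for At2g23270, the precursor of a small secreted peptide, 4.03 for the zinc finger gene At3g53600 and 4.06 for At4g28940, all just inside, whereas At5g66670, At1g30700 and At5g48175 lay just outside with 3.91, 3.89 and 3.88. For the root floor, the lower iodide signals just inside were 107 (At5g37840), 109.7 (At1g63750) and 109.8 (At1g20180), and those just outside were 95.7 (At2g15780), 87.3 (At5g67430) and 67.5 (At1g14120). The highest shoot signal was 96.4 for At1g14550, 95.07 for At3g61390 and 95.05 for At4g32950 just inside, and 100.02 for ATGLR1.2, 102 for At4g23680 and 105 for At5g42830 just outside.

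The brightest member was At5g38910, a germin-like cupin, one of a family of secreted glycoproteins of which some act as oxalate oxidases or superoxide dismutases in other plants. Its root signals were 132 (control), 123 (KBr), 17999.8 (NaI) and 14867 (KI), a ratio of 112. In shoot the gene gave 10.0, 7.74, 4.58 and 30.5 in the same order of treatments. On both iodide arrays it was the brightest of the 121 members, and in shoot its highest signal was 30.5. It was the only member among 6 germin-like cupins with an own probe set that reached 100 in root. These 6 had a median ratio of 1.18, against 0.836 for all 8189 named probe sets reaching 100 in root, of which 0.904% were members. The gene lists here and below were drawn up with earlier results of these arrays known. A gene counted if any root array reached 100, so genes low without iodide entered through the iodide arrays.

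Of 43 class III peroxidases that reached 100 in root, 6 were members (14.0%, beside 0.904% of all named probe sets reaching 100 in root), 2 more met the root condition but reached 100 in a shoot (At4g36430 and At5g64110), and 1 was at least 4-fold lower with iodide (At1g34510). The median ratio over the 43 was 0.897, so most of the family did not share the pattern. At5g19880 had the largest ratio of all members, 217, from root signals of 1.87 (control), 1.86 (KBr), 406 (NaI) and 441 (KI). Both signals without iodide were among the lowest on the array, and with signals under 50 set to 50 the ratio was 8.11. At4g08780 was the brightest peroxidase of the set and was already well measured without iodide, at 924 (control), 1127 (KBr), 5102 (NaI) and 6831 (KI), a ratio of 4.53. At5g39580 followed with 499 (control), 814 (KBr), 3579 (NaI) and 4035 (KI) and a ratio of 4.40, and its shoot signals of 44.4, 60.7, 42.6 and 93.9 came close to the limit with KI. The other 3 peroxidases were intermediate. At1g14550 gave 272, 241, 1891 and 2188 (control, KBr, NaI and KI), At5g06730 gave 133, 157, 1645 and 1233 and At5g14130 gave 157, 160.0, 815 and 703, and in each the lower iodide signal was between 4.39 and 7.84 times the higher of the other 2.

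Beta-glucosidases of family 1 were 4 of the members, out of 11 that reached 100 in root (36.4%, beside the same 0.904%). The family's median ratio was 1.36, and no further family member met the root condition. BGLU46, which acts on glucosides of lignin precursors, was the brightest with 718 (control), 655 (KBr), 3176 (NaI) and 2933 (KI), a ratio of 4.08. BGLU32 and BGLU31, which are adjacent genes on chromosome 5, were both very low without iodide. BGLU32 gave 7.85 (control), 4.93 (KBr), 328 (NaI) and 376 (KI), and BGLU31 gave 10.8 (control), 1.27 (KBr), 201 (NaI) and 259 (KI). With signals under 50 set to 50, their ratios were 6.55 and 4.02 in place of 41.7 and 18.6. BGLU32 had shoot signals of 2.58, 0.606, 1.71 and 75.0, so that only the KI shoot stood above the very low range. BGLU27 was also dim, with 29.1, 48.4, 243 and 255 in root in the same order.

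Among 28 UDP-glycosyltransferases reaching 100 in root, 3 were members (10.7%, beside 0.904% of all named probe sets reaching 100 in root). The median ratio over the 28 was 0.941. UGT73D1 was the brightest, with 56.9 (control), 89.0 (KBr), 1162 (NaI) and 1172 (KI), a ratio of 13.1. UGT76D1, which glucosylates dihydroxybenzoic acids, the breakdown products of salicylic acid, was the only member among 5 measured genes of salicylic acid synthesis, signalling and turnover. It gave 158 (control), 188 (KBr), 1040.0 (NaI) and 967 (KI), a ratio of 5.16. UGT73B4 was low without iodide and modest with it, at 4.95 (control), 14.0 (KBr), 167 (NaI) and 161 (KI). In UGT73D1 and UGT73B4 the NaI and KI signals were nearly equal. Another UGT, UGT87A2, met the root condition but reached 100 in a shoot. Glutathione S-transferases conjugate glutathione to reactive compounds, and of 11 measured in root only GSTU22 was a member, with 91.9 (control), 146 (KBr), 1447 (NaI) and 1556 (KI), a ratio of 9.93. At5g44990, annotated to the same superfamily but outside the list and named after its values were seen, had 9.67, 21.8, 167 and 212 in the same order.

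**Figure D2:**
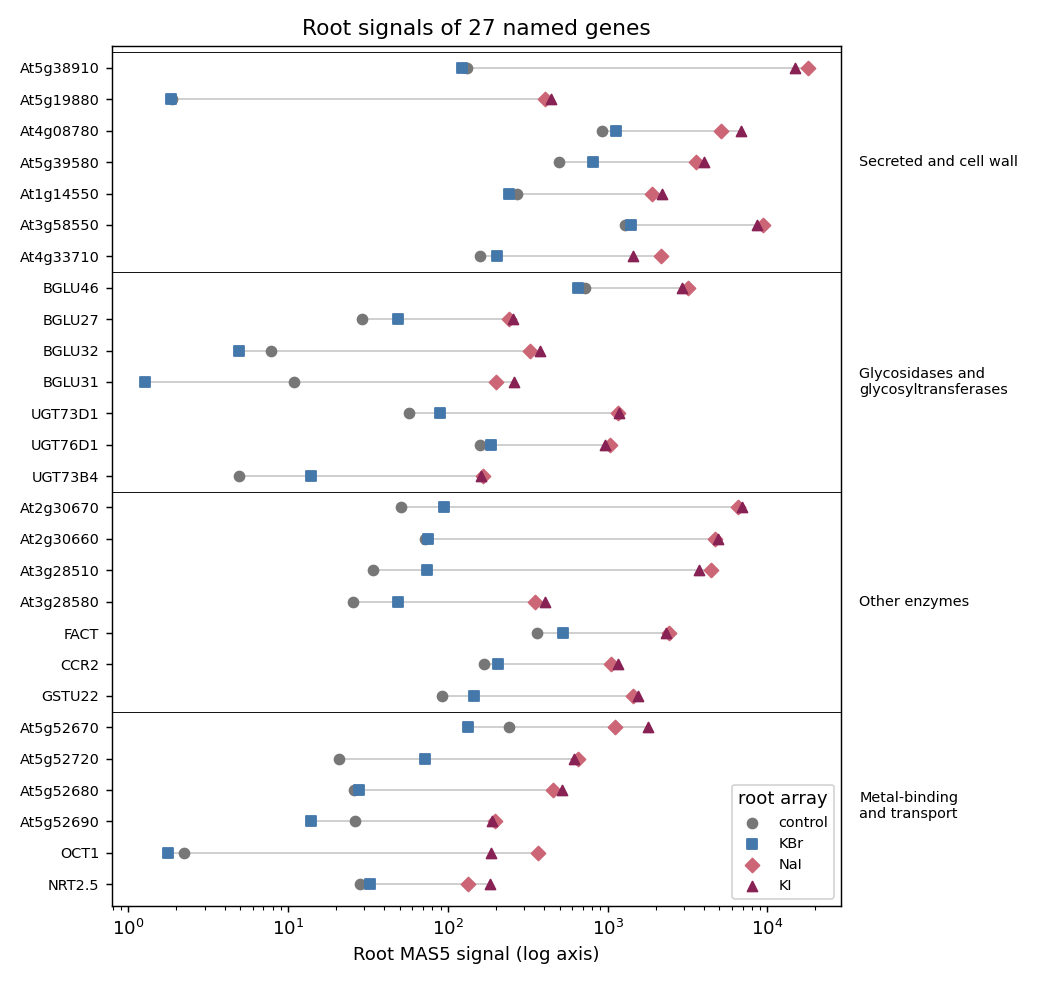
Root MAS5 signals on a logarithmic x axis for 27 named genes in 4 functional groups, with 1 symbol per root array (control, KBr, NaI, KI). NaI and KI symbols lie close together for most genes, as in UGT73D1 (1162 and 1172), and the control and KBr symbols spread most widely where both are low, as in BGLU31 (10.8 and 1.27).

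A pair of neighbouring enzyme genes on chromosome 2 had some of the largest ratios. At2g30670 encodes a short-chain dehydrogenase of the tropinone reductase-like group and At2g30660 a member of the crotonase family, which acts on acyl-CoA. The root signals of At2g30670 were 50.9 (control), 94.2 (KBr), 6563 (NaI) and 6907 (KI), and those of At2g30660 were 71.4 (control), 75.1 (KBr), 4732 (NaI) and 4927 (KI). Their ratios were 69.7 and 63.0, and both rest on signals above 50 in control roots. Both genes gave shoot signals between 35.2 and 89.3 with no order by treatment. The genes on either side that had an own probe set, At2g30650 and At2g30680, stayed under 50 on all 4 root arrays, so the pattern did not extend to the nearest measured genes. Of the 5 tropinone reductase-like genes that reached 100 in root, At2g30670 was the only member, and their median ratio was 1.14.

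At3g28510 and At3g28580 are AAA-type ATPases of a clade known for members induced by stress and by pathogens. At3g28510 gave 34.0 (control), 74.4 (KBr), 4432 (NaI) and 3755 (KI), a ratio of 50.5. At3g28580 gave 25.4 (control), 48.6 (KBr), 350.0 (NaI) and 404 (KI), a ratio of 7.20. Together they were 2 of 7 genes of the clade that reached 100 in root (28.6%, beside 0.904% of all named probe sets reaching 100 in root). A further gene, At1g43910, met the root condition with a shoot signal of 100 or more, and the median ratio of the 7 was 3.54. In both members the KBr signal was above the control signal. Among the berberine bridge enzyme-like oxidases, flavin enzymes that act on plant oligosaccharides and phenolics, the median ratio over 11 genes was 3.35, but only At1g26420 was a member, with 15.7, 25.1, 242 and 325 in the order given. At5g44400 and At1g26390 met the root condition and reached 100 in a shoot.

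FACT transfers caffeic acid to the fatty alcohols of root waxes, and CCR2 makes cinnamaldehydes as precursors of phenylpropanoid polymers. FACT had root signals of 363 (control), 523 (KBr), 2406 (NaI) and 2334 (KI), a ratio of 4.46, and shoot signals of 66.0, 38.7, 54.5 and 52.9. It was the only gene of the suberin and fatty alcohol list, 20 genes in all, that a probe set named alone, so the list says nothing of that pathway as a whole. CCR2 was on no list and was named after its values were seen. For CCR2 the root signals were 168 (control), 206 (KBr), 1048 (NaI) and 1155 (KI), a ratio of 5.08, and no shoot signal was over 11.3. The lipid-transfer protein At3g58550, a small secreted carrier of lipids, was 2nd in brightness among the named members. It gave 1277 (control), 1397 (KBr), 9386 (NaI) and 8585 (KI) in root, a ratio of 6.14, and 78.5, 22.2, 74.0 and 82.5 in shoot. All 3 genes were clearly measured in roots without iodide.

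The densest group along a chromosome was a row of small heavy-metal-associated proteins on chromosome 5, annotated as copper transport proteins. At5g52670, At5g52680, At5g52690 and At5g52720 were members, 4 of 7 genes of the cluster that reached 100 in root (57.1%, beside 0.904% of all named probe sets reaching 100 in root). The list of this cluster was drawn up with earlier results of these arrays known, so nothing is read from that share. At5g52670 gave 241 (control), 133 (KBr), 1114 (NaI) and 1778 (KI), and it was the only one of the 4 that was over 100 in control roots. At5g52680 gave 26.0 (control), 27.7 (KBr), 456 (NaI) and 521 (KI), with the largest ratio of the 4, 16.5. At5g52720 gave 20.7 (control), 72.3 (KBr), 649 (NaI) and 619 (KI), with KBr well above control. At5g52690 was the dimmest, at 26.3, 13.9, 198 and 188. On one side the next measured genes did not share the pattern, as At5g52660 gave 256, 309, 281 and 279.5 in the same order and At5g52650 gave 5899, 5550.3, 5556 and 5708.

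On the other side the pattern went on in genes that were kept out by a limit. At5g52750 and At5g52760 met the root condition, at 73.6, 99.1, 573 and 631 and at 16.3, 23.0, 375 and 475, but reached 100 in a shoot. At5g52710, between the members, had 434, 447, 1581 and 1812 and a ratio of 3.54, under the 4 required. At5g52740 and At5g52770 stayed under 30 on every root array. The median ratio over the 7 genes was 7.14. At5g52680, At5g52690, At5g52720, At5g52750 and At5g52760 were under 100 without iodide and so counted through the iodide arrays alone. At5g52740 and At5g52770, which never reached 100 in root, were not counted. A high median was thus partly built in, and nothing is read from it. Transcripts of similar paralogs can hybridise to each other's probe sets, and whether they did was not tested.

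**Figure D3:**
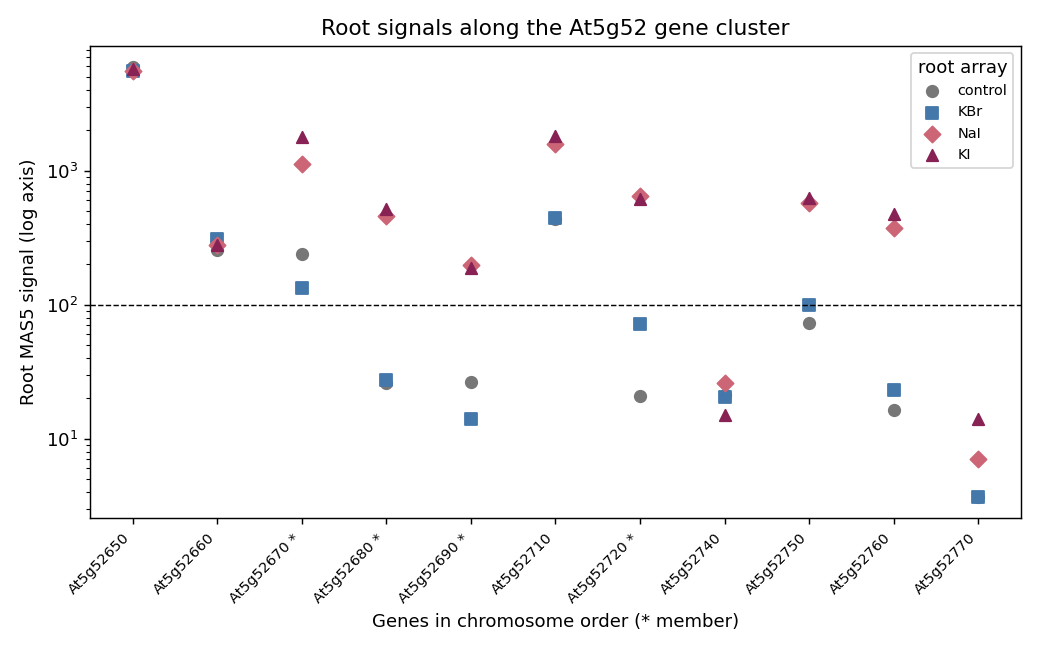
Root MAS5 signals (logarithmic y axis) of the genes with an own probe set along the chromosome 5 cluster, in gene order on the x axis, with members starred and a dashed line at 100. NaI and KI lie above control and KBr from At5g52670 to At5g52760 except at At5g52740, and the 2 flanking genes on the left show all 4 signals together.

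Neighbouring members, within 5 gene loci of each other in the order of the RefSeq gene table, formed 4 groups with 10 genes in all. Besides the row on chromosome 5, the BGLU31 and BGLU32 pair and the pair on chromosome 2, they were At1g15010 and GAT1_2.1 on chromosome 1, which lie 5 loci apart. At1g15010 gave 61.6, 63.0, 583 and 536 in root in the same order, and GAT1_2.1, a glutamine amidotransferase-like gene, gave 13.4, 9.21, 192 and 179. The 74 named members were spread over all 5 chromosomes. Chromosome 5 held 20 of them (27.0%, beside 22.4% of all named probe sets), chromosome 1 held 19 (25.7% beside 25.7%), chromosome 2 held 15 (20.3% beside 16.4%), chromosome 3 held 11 (14.9% beside 20.4%) and chromosome 4 held 9 (12.2% beside 14.6%). These shares are close to those of the array.

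OCT1, an organic cation and carnitine transporter, had root signals of 2.21 (control), 1.77 (KBr), 366 (NaI) and 186 (KI), a ratio of 84.0 that rests on very low signals without iodide and was 3.72 with signals under 50 set to 50. Its KI signal was the lowest relative to NaI among all members. NRT2.5, a high-affinity nitrate carrier known for its induction in nitrogen-starved plants, gave 28.2 (control), 32.8 (KBr), 134 (NaI) and 183 (KI) in root and 79.4, 42.0, 77.1 and 65.6 in shoot, so that every shoot signal was above its root signals without iodide. These were the 2 members among 6 genes reaching 100 in root on a transporter list (33.3%, beside 0.904% of all named probe sets reaching 100 in root). The list was written for transporters of nitrate, urea, potassium, sulfate and phosphate, and OCT1 was on it although named for other substrates. Another gene on it, the nitrate transporter gene At3g21670, met the root condition with a shoot signal of 100 or more.

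From the list of TIR domain genes 4 of 20 measured in root were members. At4g11340 gave 42.2 (control), 61.8 (KBr), 579.6 (NaI) and 474 (KI), At2g32140 gave 25.0, 41.1, 296 and 340.3, At1g63750 gave 24.2, 25.2, 119 and 109.7, and At1g57650, annotated only as an ATP-binding protein, gave 4.80, 8.35, 138 and 144. Their lower iodide signals thus ran from 109.7 to 474, and the shoot signals of At1g63750, at 82.1, 65.9, 88.0 and 35.5, were all above its root signals without iodide. The list's median ratio was 1.59, and At1g57630, At1g66090 and At1g72940 met the root condition with shoot signals of 100 or more.

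Calcium sensors were represented by CML37 and the EF-hand gene At3g01830, 2 of 23 measured in root (8.70%, beside 0.904% of all named probe sets reaching 100 in root). The median ratio over the 23 was 1.95. CML37, a calmodulin-like protein known from wounding and herbivory, gave 16.3 (control), 20.7 (KBr), 243 (NaI) and 190.4 (KI). At3g01830 gave 2.72, 20.2, 189 and 166 in the same order. Both were under 50 in roots without iodide. The VQ motif gene At2g22880, of a family of WRKY partners, gave 40.9, 39.7, 205 and 308, and the aspartyl protease At1g44130 gave 21.9, 44.3, 235 and 415, in both cases with the highest signal in the KI root. At4g19720, a glycosyl hydrolase with a chitinase domain, was brighter, at 327 (control), 289 (KBr), 1652 (NaI) and 1814 (KI). It was the only member among 13 chitinases and glucanases reaching 100 in root (7.69%, beside the same 0.904%). Of these 13, 2 others (ChiC and CHI) also met the root condition.

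Precursors of small secreted peptides of the PIP family, which amplify immune responses in Arabidopsis, were found outside the lists. At2g23270 gave 117 (control), 388 (KBr), 1560.2 (NaI) and 2136 (KI), with the smallest ratio of the set. At4g37290 gave 22.9 (control), 2.79 (KBr), 142 (NaI) and 214 (KI). At4g28460, named after its values were seen, gave 116 (control), 192 (KBr), 1081 (NaI) and 1361 (KI). All 3 had a KI signal above the NaI signal, and none reached 60 on a shoot array. The CAP protein At4g33710, a relative of PATHOGENESIS-RELATED 1, gave 158 (control), 203 (KBr), 2146 (NaI) and 1448 (KI), a ratio of 7.14.

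Other lists held no member among the genes that a probe set named alone. With members at 0.904% of all named probe sets reaching 100 in root, lists of this size would hold few or none, so nothing is read from their absence. There was none among 22 core low-oxygen genes measured in root, of which At1g72940 met the root condition, and none among 9 lectins, of which 3 met it. The 12 PAR1 and TRAF-like genes held no member, although At5g52390 and At4g01390 met the root condition. The 10 Bet v 1 relatives held none either, with At4g23680 meeting the root condition and At5g28010 and At1g70880 at least 4-fold lower with iodide. No member was found among 10 cytochromes P450, 6 WRKY factors, 5 genes of elicitor peptides and pattern-triggered immunity and 1 gene of indole phytoalexin synthesis. Median ratios were 0.700 for the P450 enzymes, 0.741 for the PAR1 and TRAF-like genes, 0.945 for the Bet v 1 relatives and 1.02 for the WRKY factors. They were 1.22 for the elicitor peptide and immunity genes, 1.64 for the low-oxygen genes and 2.53 for the lectins. The indole phytoalexin gene had a ratio of 3.27. Over all named probe sets reaching 100 in root the median was 0.836. Coverage by name was thin for some lists, with 1 NAC gene, 1 ERF gene and no MYB, ABC transporter or cysteine-rich receptor-like kinase gene measured, so that nothing can be said of those families here. In all, 35 of the 74 named members were on at least 1 of 31 lists, which had been drawn up with earlier results of these arrays known.

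The remaining 39 named members were on no list, and several had large ratios. At2g01300, annotated as a subunit of the Mediator complex, gave 67.0 (control), 52.9 (KBr), 1235 (NaI) and 1248 (KI), a ratio of 18.4. The protein phosphatase 2C gene At4g32950 gave 71.6 (control), 76.9 (KBr), 1624 (NaI) and 1379 (KI), a ratio of 17.9. At1g13310, with a BRO1-like domain, gave 3.94, 8.01, 142 and 149.7 in the same order. Its ratio of 17.7 rests on very low signals without iodide and was 2.84 with signals under 50 set to 50. Among bright ones, the transmembrane protein At3g55790 gave 371 (control), 537 (KBr), 5387 (NaI) and 4662 (KI), and its shoot signals did not exceed 10.1. At2g18360, an alpha/beta-hydrolase, gave 262 (control), 366 (KBr), 2805 (NaI) and 2399 (KI). The RING/U-box gene At3g61390, just inside the shoot limit, gave 137, 158, 1227 and 1128.

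NaI and KI gave similar signals for most members, in part because the rule required both to be high. The median ratio of KI to NaI in root was 1.04 over the 121 members, with a range from 0.508 to 1.97, and the log2 signals of both arrays had a Pearson correlation of 0.98 across members, which share the 2 arrays and are not independent. KI was above NaI for 69 members (57.0%), beside 47.6% of the 13568 probe sets with both root iodide signals at 100 or more, and beside 43.9% of the 114 probe sets of the root condition that reached 100 in a shoot. Both signals differed at least 1.5-fold for 10 members (8.26%, beside 2.82% of the same probe sets), with KI the higher in 8, and for none was the difference 2-fold. The rule required both iodide signals to be high, so large gaps between them were partly removed by the choice. Even so, the share at least 1.5-fold apart was above that of the 13568 probe sets, a difference that was not tested.

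Among named members, the largest KI to NaI ratios were those of At1g44130 (1.76), At5g52670 (1.60) and At4g37290 (1.51). At the other end stood OCT1 (0.508), At4g33710 (0.675) and At2g31945 (0.720). The transmembrane protein At2g31945 gave 73.2 (control), 77.6 (KBr), 749.9 (NaI) and 539.8 (KI). With 1 array per salt, a gap of this size cannot be set against replicate spread.

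**Figure D4:**
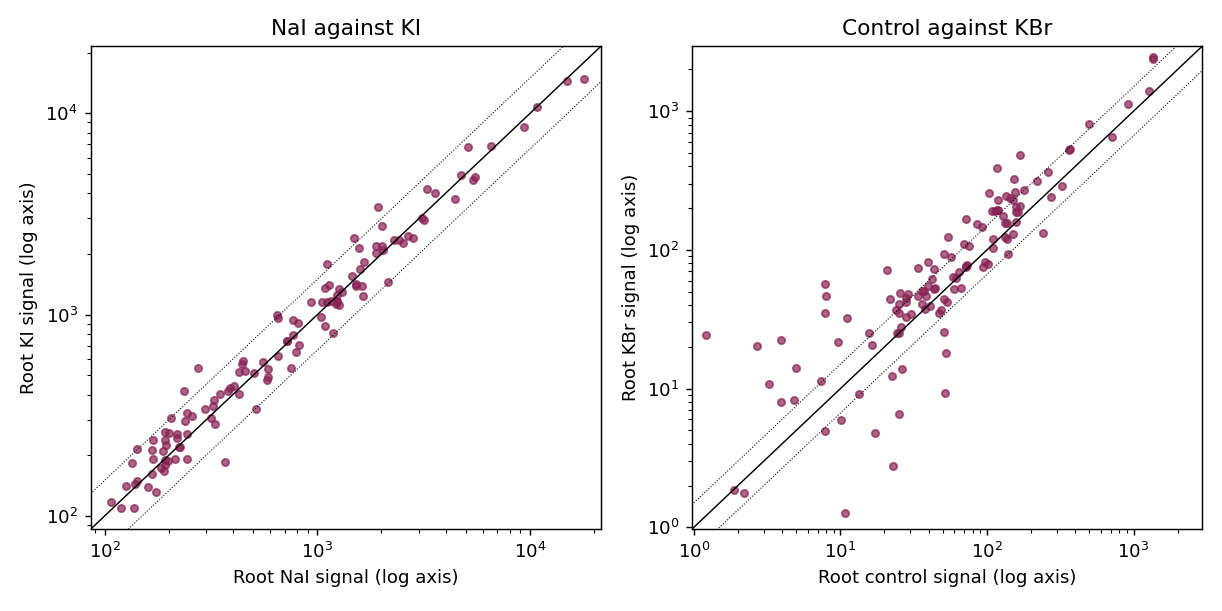
Root MAS5 signals of the 121 members on logarithmic axes, NaI against KI on the left and control against KBr on the right, with a solid line for equal signals and dotted lines for a 1.5-fold difference. On the left 10 members lie outside the dotted lines, and on the right 87 members lie above the solid line, most widely scattered where signals are low.

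The rule compared iodide with the higher of control and KBr and did not set the order of those 2. KBr was above control in root for 87 members (71.9%), beside 51.0% of the 13568 probe sets with both root iodide signals at 100 or more. The median ratio of KBr to control was 1.34 over the members and 1.004 over those probe sets. Among the 48 members that reached 100 without iodide, a split that uses the KBr signal itself, KBr was above control in 38, with a median ratio of 1.43. KBr was at least 2-fold above control for 21 members (17.4%, beside 0.604%), but in only 6 of these did the KBr signal reach 100. Control was at least 2-fold above KBr for 6 others (4.96%, beside 0.501%). The 13568 probe sets are not alike in level, since control and KBr were both under 100 for 2.66% of them and for 60.3% of the members, and the part of low signal in these shares was not tested. The 114 probe sets of the root condition that reached 100 in a shoot had KBr above control in 65.8%, with a median ratio of 1.14, and the 75 lowered ones in 46.7%, with 0.989. Members share the same 2 arrays, so this order is a single comparison of 1 KBr and 1 control root.

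Among named members with a KBr signal of at least 50, the KBr to control ratio was largest for At5g52720 (3.49) and At2g23270 (3.33). At5g41280, a secreted relative of cysteine-rich receptor-like kinases, followed with 2.32, from root signals of 71.7 (control), 166 (KBr), 929 (NaI) and 1153 (KI). At3g28510 (2.19) and At2g30670 (1.85) came next.

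In shoot the members were low throughout, as selected. Their highest shoot signal had a median of 47.0 and was under 20 for 24 members and under 50 for 67, and the lower root iodide signal was a median of 18.3 times it. The order of treatments in shoot was not used by the rule. Both iodide signals lay above both others in shoot for 22 members (18.2%), beside 14.7% of the 7985 probe sets that were under 100 on every shoot array, and both lay under both others for 17 (14.0%), beside 17.4%. These shares are near the background. Median shoot signals of the members were 22.1 (control), 18.6 (KBr), 25.0 (NaI) and 15.7 (KI), with no step between the iodide arrays and the others.

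The named members with the iodide order in shoot and the largest root ratios were At3g28510, BGLU31, At2g01300, At5g52720 and At2g41380. At3g28510 had shoot signals of 4.66, 26.2, 40.9 and 51.0 in the order control, KBr, NaI and KI. BGLU31 had 26.9, 8.94, 50.6 and 60.2, and At2g01300 had 48.9, 27.5, 79.6 and 55.5. At5g52720, at 1.67, 2.12, 2.89 and 3.84, was too low for its order to be read. The methyltransferase gene At2g41380 showed the largest step of these 5, at 23.4, 18.6, 79.2 and 64.5 in shoot and 1.21, 24.3, 192 and 189.9 in root. The alpha/beta-hydrolase gene At1g68620, named after its values were seen, had 8.17, 26.1, 82.5 and 80.3 in shoot and 7.96, 46.2, 219 and 256 in root. The shoot signals are all under 100, where MAS5 values are least precise.

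Against the 114 probe sets that met the root condition and reached 100 in a shoot, the members were dimmer in root, as their medians show. The median lower iodide signal was 646 for the members and 850.0 for the others, and 26 members (21.5%) were under 200 against 8 of the others (7.02%). The median ratio was 6.95 and 6.15, and control and KBr were both under 100 for 60.3% and 46.5%. In shoot, both iodide signals lay above both others for 65 of the 114 (57.0%), against 18.2% of the members, although the shoot signals themselves had placed them in that set. No test of these differences was made, since both sets were cut from the same 8 arrays by the signals compared.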

How the data were processed

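Per treatment and organ, 1 ATH1 array was analysed, 8 in all, with RNA pooled from 3 plants on each. The authors processed the arrays with MAS5 and deposited linear intensity signals, which were taken as they stand. Detection p-values of the authors were not used. With single arrays the precision is limited, and no SD, interval or test was computed.

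The selection (fold of 4, root floor of 100, shoot ceiling of 100) was run on 22746 probe sets, without 64 Affymetrix controls. Members, gene lists and rules were chosen with earlier results of these data known. The ratio given throughout is the lower of NaI and KI over the higher of control and KBr. List genes were called measured in root if they had a probe set naming no other gene and a signal of 100 or more on any root array.

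Names came from the platform table, in which 13513 of 22810 probe sets had 1 gene symbol, 503 several and 8794 none. Of these, 13436 matched a locus of the RefSeq table (TAIR10.1), which served for names and gene order only, since the array build is not given in the sources used here. Genes were named by rule: the 15 largest ratios, the 10 brightest, all in a list, 3 at each end of KI over NaI, 5 of KBr over control, 3 on each side of each limit, neighbours within 5 loci, and up to 5 with the iodide order in shoot. Genes outside the rule were chosen after their values were seen. These were At4g28460, At5g44990, At1g68620, CCR2, genes flanking the neighbour groups, and list genes kept out by the shoot limit or lowered. Promoter motifs and protein alignments were planned but not run, and sequences are not used here. Alternatives were other limits, quantile and median scaling, another baseline and subsets of probe sets. Scripts (Python 3.11.15, pandas 2.3.3, numpy 2.4.6) were tested on simulated data.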

Additional observations from a re-analysis of the deposited data

Results flagged for a closer look

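For 17 of the 121 members (14.0%), both iodide signals in shoot lay under both the control and the KBr signal, the opposite of their order in root. The difference between organs was not tested, and 14.0% is under the 17.4% of probe sets under 100 in every shoot that had the same order.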

How the results depend on the processing

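The number of members, 121, followed the limits. It was 45 with a fold of 8 and 67 with a shoot ceiling of 50, and between 95 and 172 under the other limits and baselines. Scaling mattered less, with 122 to 131 members under quantile or median scaling, of which 118 to 121 were the same probe sets. Of the 74 named members, 72 kept a ratio of at least 4 under either quantile scaling and all 74 under median scaling.

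Restricting to probe sets that name 1 gene alone left 74 members, 14 with the iodide order in shoot, 41 with KI above NaI and 55 with KBr above control. These are smaller sets by construction. The shares were 18.9%, 55.4% and 74.3%, beside 14.3%, 48.1% and 50.7% of the named probe sets that served as background for each. The iodide order in shoot was found in 23.8% and 25.4% of members under quantile scaling, within organs and over all arrays, beside 17.5% and 17.6% of probe sets under 100 in every shoot. KBr stayed above control in 71.2% to 74.3% of members under all 5 alternatives run for it, beside 50.7% to 51.8% of the background probe sets. Signals under 50, without replicates or detection calls, limit the shoot orders and the largest ratios.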
